A study of Homo sapiens with 20 samples.

Results

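The 9 genes followed here, ELF3, EHF, SPDEF, ETV1, ETV6, ELF1, ELK4, ETS2 and ERF, encode transcription factors of the ETS family. They were taken by gene symbol, 1 row each, from the 57773 rows of both count tables, and they are 9 of the 28 ETS genes in human. They were chosen by the lower ELF3 mRNA of doxycycline-treated cells, a measured value of these samples that was known beforehand, together with the rearrangement of ETV1 known from LNCaP, the prostate adenocarcinoma cell line studied. The Dox values below are therefore a description without a test. The siRNA comparison and the differences between cell lines were not part of this rule. The 9 genes and all gene lists were nevertheless chosen with earlier results of these data known.

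ETS factors share a winged-helix DNA-binding domain that reads a GGAA core, or TTCC on the other strand, so members of the family can compete for the same sites. ELF3, EHF and SPDEF, here called the epithelial branch, are made mainly in glandular and surface epithelia. SPDEF was first described as a prostate-derived factor that can bind with the androgen receptor. ETV1 is a growth-promoting member that in many prostate cancers is moved next to a foreign regulatory region, and in LNCaP its locus is inserted on another chromosome near MIPOL1. ELK4 is a partner of SRF and an androgen-responsive gene, ELF1 and ETS2 are activators, and ETV6 and ERF are repressors.

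LNCaP cells were transfected for 2 days with 20 nM of a nontargeting siRNA pool (siNTC) or of a pool against EHMT1 (siEHMT1), the histone H3 lysine 9 methyltransferase also known as GLP, with 2 samples in each group. In a separate experiment, LNCaP-tet-EHMT1 cells carried a tetracycline-inducible EHMT1 open reading frame, either wild type (WT) or with the lysine-to-arginine changes K450R, K451R or both (K450RK451R), and received no doxycycline (Veh) or 0.25 µg/mL doxycycline for 2 days (Dox). Each line is 1 population, infected with lentivirus and selected with puromycin, that still has its own EHMT1 gene, and each has 2 columns per condition. No line without the open reading frame was analysed here, so the effects of doxycycline itself and of the induced EHMT1 cannot be told apart. The deposited values were read counts per gene, normalised here with edgeR's TMM method within each table and given as CPM, counts scaled to the normalised library size.

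The 4 siRNA libraries held 5593400 to 12438006 counts. The 2 columns of each stable-line condition differed by no more than counting noise, as their chi-square divided by its degrees of freedom was 0.995 to 1.02, against 61.6 for siNTC and 13.4 for siEHMT1. Without pseudogenes that resemble ribosomal RNA (rRNA), the siRNA values were 6.58 for siNTC and 6.17 for siEHMT1. The siNTC libraries then held 9783820 and 5032879 counts, against 9864743 and 5593400 with these pseudogenes. The 2 columns of each stable-line condition were summed to 1 sample of 8436791 to 12407739 counts and counted once. EHMT1 mRNA was 85.5 ± 2.91 CPM in siNTC and 29.9 ± 1.06 CPM in siEHMT1 (SD, n = 2 each), and in each line it was higher under Dox, from 71.5 to 88.7 CPM in Veh to 660.1 to 840.1 CPM in Dox. The 9 luminal prostate markers each had at least 920 counts in every sample. The 4 basal markers reached at most 18 counts, the 4 neuroendocrine markers at most 25 and the 3 blood markers at most 2. The 4 stroma markers summed to 19.1 to 24.3 CPM in the siRNA libraries and 34.5 to 45.7 CPM in the stable lines, mostly from COL1A1 (78 to 483 counts), while COL1A2 had 0 counts in every sample and DCN at most 1. ACTA2, of the same list, had 3.71 CPM in siNTC and 7.58 CPM in siEHMT1 (log2 fold change 1.03, edgeR adjusted p = 0.166). In all these bulk samples, fewer cells that make an mRNA and less of it per cell cannot be told apart.

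All 9 genes were detected in every library, and the epithelial branch held most of the family's mRNA. The annotation on GRCh37 places ELF3 (ENSG00000163435) at chr1:201977073-201986311 on the plus strand, EHF at chr11:34642640-34684835 on the plus strand and SPDEF at chr6:34505579-34524110 on the minus strand. ETV1 (ENSG00000006468) lies at chr7:13930854-14031050, ELF1 at chr13:41506060-41635576, ELK4 at chr1:205566684-205601139 and ERF at chr19:42751721-42759280, all on the minus strand. ETV6 lies at chr12:11802608-12048311 and ETS2 at chr21:40177107-40196879, on the plus strand. All are protein-coding genes. The counts cover whole genes and do not separate exons, introns or isoforms.

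The upstream regions of 3 genes are shown. The first 2 belong to ELF3 and EHF, close relatives of which only ELF3 differed past the threshold between the stable lines, and the last belongs to ELK4, the only gene of the 9 with the longer ETS consensus CCGGAAGT. The 250 bases before the RefSeq transcription start (GRCh38.p14) are written 5′ to 3′ on the gene's own strand, with each GGAA or TTCC in capitals. The ELF3 region is chr1:202010337-202010586 (plus strand), the EHF region is chr11:34624007-34624256 (plus strand, the first of its 2 listed starts) and the ELK4 region is chr1:205632012-205632261 (minus strand).
ELF3: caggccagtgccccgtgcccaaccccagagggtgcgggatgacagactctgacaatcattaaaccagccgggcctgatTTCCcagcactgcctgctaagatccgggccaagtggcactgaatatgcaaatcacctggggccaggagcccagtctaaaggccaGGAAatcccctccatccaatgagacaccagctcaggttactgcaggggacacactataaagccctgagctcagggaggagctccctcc
EHF: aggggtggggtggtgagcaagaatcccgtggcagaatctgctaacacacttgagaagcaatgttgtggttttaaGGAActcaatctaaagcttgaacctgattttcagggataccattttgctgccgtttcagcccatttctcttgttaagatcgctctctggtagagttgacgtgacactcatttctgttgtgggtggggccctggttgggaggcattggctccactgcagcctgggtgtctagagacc
ELK4: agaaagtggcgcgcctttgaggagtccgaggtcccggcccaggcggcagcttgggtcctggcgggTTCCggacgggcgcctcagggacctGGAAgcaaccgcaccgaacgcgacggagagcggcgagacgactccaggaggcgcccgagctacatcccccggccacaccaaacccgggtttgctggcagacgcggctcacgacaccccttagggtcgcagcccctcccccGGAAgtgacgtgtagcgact
The ELF3 region holds 2 GGAA cores, 1 on each strand, and the EHF region holds 1. The ELK4 region holds 3, of which the one nearest the start lies within CCGGAAGT, from base -22 to base -15 relative to the start. A GGAA core on either strand is in 92.7% of the 35116 promoters of this length and in 18 of the 20 promoter entries of the 9 genes, so its presence sets no gene apart. CCGGAAGT, searched on both strands and overlapping the shorter core, is in 3.42% of all promoters and in 1 of the 20. The letters alone do not show that a factor binds.

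To compare levels between genes, counts were divided by exonic length (RPKM, CPM per kilobase of exon). In the Veh samples SPDEF was highest at 126 RPKM (range 119 to 132 over 4 lines), followed by EHF at 85.3 (79.1 to 92.9) and ELF3 at 40.9 (27.8 to 57.5). ETV1 followed at 16 RPKM, ERF at 9.29, ELF1 at 7.69, ELK4 at 5.42, ETS2 at 3.29 and ETV6 at 1.83. No neighbours in this order overlapped between lines. In siNTC the order was SPDEF at 81.6 RPKM, EHF at 51.6, ETV1 at 21.5, ELK4 at 11.4, ERF at 7.07, ELF1 at 5.91, ELF3 at 4.20, ETV6 at 2.13 and ETS2 at 1.42, and only ERF (5.97 to 8.16) and ELF1 (5.33 to 6.49) overlapped. ELF3 thus ranked below ELF1 in siNTC and above ETV1 in Veh. Of the 4 Dox samples, ELF3 was below ETV1 in K450RK451R, at 16.1 against 20.0 RPKM, and above it in the other lines.

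Of the RPKM summed over all 28 family genes, SPDEF, EHF and ELF3 together made up 63.6 to 64.8% in siNTC, 74.7 to 77.9% in Veh and 75.0 to 78.3% in Dox. The share of ELF3 alone was 1.85 to 2.07% in siNTC, 8.47 to 17.3% in Veh and 5.02 to 13.8% in Dox. ETV1 made up 9.96 to 10.1% in siNTC and 4.62 to 5.16% in Veh. At the other end, 9 family genes had no more than 10 counts in any library. Among them were ERG, the usual partner of TMPRSS2 in prostate cancer fusions, the ETV1 relatives ETV4 (at most 9 counts) and ETV5 (at most 6 counts), and the blood factor SPI1. ETV1 was the only one of the 3 PEA3-group genes (ETV1, ETV4 and ETV5) present above that level.

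**Figure D1:**
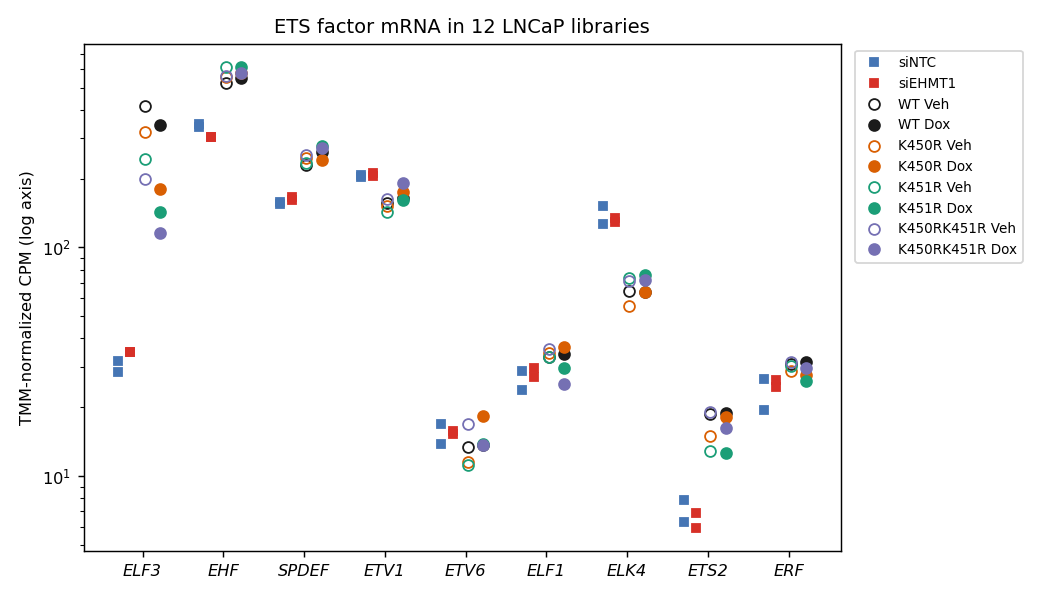
TMM-normalised CPM (log axis) of the 9 genes in each of 12 libraries, with squares for the siRNA samples, open circles for Veh and filled circles for Dox samples of the 4 stable lines. ELF3 lies between 28.6 and 35.0 CPM in the siRNA samples and between 115.5 and 413.3 CPM in the stable lines, while the points of the other genes lie closer together.

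The Veh samples of the stable lines and the siNTC samples differ in cell population, culture and experiment, which cannot be told apart, so their levels are set side by side without a test. The mean of the 4 Veh samples was 9.74 times the siNTC mean for ELF3 and 10.5 times when all libraries were scaled together. Of 15576 genes, 343 (2.20%) had a ratio of 5 or more, and the median ratio was 0.934. No other of the 9 genes came near that ratio: ETS2 was at 2.32, EHF at 1.65, SPDEF at 1.54, ERF at 1.31, ELF1 at 1.30, ETV6 at 0.863, ETV1 at 0.745 and ELK4 at 0.475. Hypoxia genes differed between the same samples. Their 10 listed members summed to 621 to 754 CPM in the 4 siRNA libraries and to 5090 to 7190 CPM in the 8 stable-line samples, and their part in the ELF3 level was not tested.

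ELK4 had the lowest of these ratios, with 126.8 and 151.3 CPM in siNTC and 55.5 to 73.6 CPM in Veh. Its neighbour SLC45A3, a prostate-specific transporter gene on the same strand (chr1:205626979-205649637) that can be spliced to ELK4 in prostate cancer, had 572 CPM in siNTC and 297 CPM in Veh. Both levels were lower in the stable lines.

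EHMT1 silencing changed none of the 9 genes past the threshold. With edgeR's quasi-likelihood test, 0 of 9 passed an adjusted p of 0.05, where 0.131% of 14532 genes did, and 0 of 9 passed an unadjusted p of 0.05, where 9.55% did. DESeq2 and limma-voom also called 0 of the 9. The median log2 fold change of the 9 was 0.03, against 0.00 over all genes tested.

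In the epithelial branch, ELF3 had 31.8 and 28.6 CPM in siNTC and 35.0 and 34.7 CPM in siEHMT1. Both silenced samples were above both controls, as for 19.8% of all genes, and the log2 fold change was 0.21 (SE 0.13, 95% interval -0.06 to 0.47, edgeR adjusted p = 0.631). EHF had 334.9 and 347.9 CPM in siNTC and 303.6 and 305.2 CPM in siEHMT1. Both silenced samples were below both controls, as for 19.9% of all genes, with a log2 fold change of -0.17 (95% interval -0.34 to 0.01, edgeR adjusted p = 0.563). SPDEF had 154.6 and 158 CPM against 161.6 and 165.4 CPM, a log2 fold change of 0.07 (95% interval -0.12 to 0.25, edgeR adjusted p = 0.866). ELF3 and SPDEF thus lay slightly higher and EHF slightly lower, each with an interval that included 0.

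ETV1 had a narrow spread, at 203.9 and 207.9 CPM in siNTC and 205.5 and 210.8 CPM in siEHMT1. Its log2 fold change was 0.02, and the 95% interval of -0.16 to 0.20 limits how large a change could have gone unseen. ELK4 had 126.8 and 151.3 CPM in siNTC and 129.6 and 135.1 CPM in siEHMT1, with both silenced samples inside the range of the controls (log2 fold change -0.07, 95% interval -0.28 to 0.14). The activators ELF1 and ETS2 had log2 fold changes of 0.11 and -0.15. The repressors ETV6 and ERF had log2 fold changes of 0.02 and 0.13. ETS2 was the least well measured of these, with 32 to 87 counts per library and an interval of -0.66 to 0.36.

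**Figure D2:**
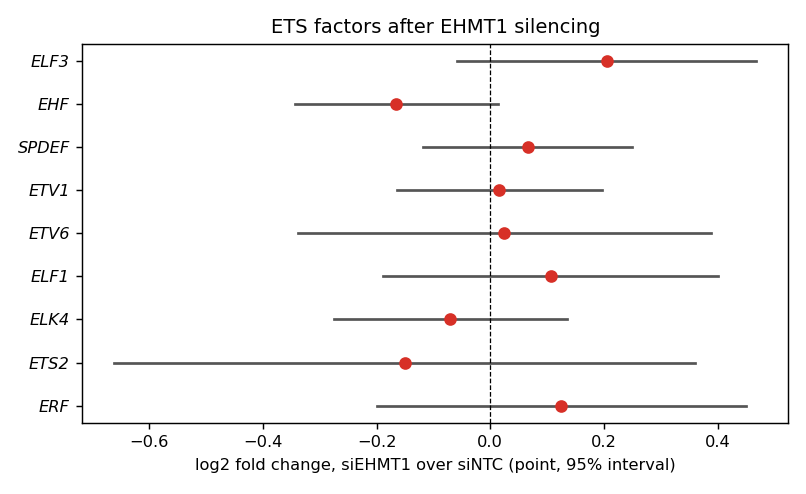
Log2 fold change of the 9 genes between siEHMT1 and siNTC (2 samples each), with the point for the edgeR estimate and the line for its 95% interval. Every interval crosses 0, and that of ETS2 is the widest, from -0.66 to 0.36.

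The 4 stable lines differed in ELF3 and, past the threshold, in no other of the 9 genes. ELF3 had 413.3 CPM in WT Veh, 320.2 in K450R Veh, 243.3 in K451R Veh and 199.7 in K450RK451R Veh. The Dox samples, taken in the same order of lines, had 342.9, 179.8, 142.4 and 115.5 CPM. The order of the lines was the same with and without doxycycline, with WT highest and the line with both changes lowest.

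With the Dox state as a covariate, edgeR's quasi-likelihood F test over the 4 lines gave ELF3 an adjusted p of 1.19e-08, and the highest line was 2.49-fold above the lowest (1.31 on the log2 scale). This made 1 of 9 genes called, where 2.72% of 14869 genes were. Over all genes tested the median spread between the highest and the lowest line was 0.31 on the log2 scale, and the median of the 9 genes was 0.24. Each line is 1 population and its Veh and Dox samples are the only pair behind its level, so the test compares these populations and not the EHMT1 changes they carry. Without the WT line the spread was 0.66 on the log2 scale and the edgeR adjusted p was 3.39e-06.

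Taken pair by pair in the same edgeR fit, which was added after the line values were seen, ELF3 in WT was 1.57-fold above K450R (log2 difference 0.65, SE 0.10, adjusted p = 0.00127, where 0.276% of genes were called). WT was 2.03-fold above K451R (adjusted p = 4.03e-07, 2.20% of genes called) and 2.49-fold above K450RK451R (adjusted p = 3.65e-09, 3.33% of genes called). K450R was 1.58-fold above K450RK451R (adjusted p = 0.00282, 0.350% of genes called). The neighbours further down the order did not differ past the threshold: K450R was 1.29-fold above K451R (adjusted p = 0.139, 0.343% of genes called) and K451R was 1.22-fold above K450RK451R (adjusted p = 0.333, 0.269% of genes called).

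Among the other 8 genes, ETS2 had the widest spread between lines, 0.56 on the log2 scale with WT highest and K451R lowest (edgeR adjusted p = 0.226). ELK4 spread over 0.32, with K451R highest and K450R lowest (edgeR adjusted p = 0.186). ETV6, ELF1, ETV1, EHF, ERF and SPDEF spread over 0.27, 0.24, 0.22, 0.20, 0.15 and 0.10, with edgeR adjusted p-values from 0.399 to 0.806. EHF and SPDEF, epithelial relatives of ELF3, had highest and lowest lines within 1.14-fold and 1.07-fold of each other, against 2.49-fold for ELF3.

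Under doxycycline ELF3 was lower in 4 of 4 lines and ETV1 was higher in 4 of 4. For each line, the ratio of Dox to Veh is given with a 95% exact binomial interval, which covers counting error only. Of 14773 genes, 9.98% were lower and 10.5% higher in all 4 lines. Because the genes were chosen with the fall of ELF3 known, nothing is read from these counts.

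ELF3 had 4906 counts in WT Veh and 3047 in WT Dox, a CPM ratio of 0.830 (0.793 to 0.868). The K450R line had a ratio of 0.562 (0.528 to 0.597), the K451R line one of 0.585 (0.549 to 0.624) and the K450RK451R line one of 0.579 (0.541 to 0.619). The mean over lines was -0.67 on the log2 scale (SD 0.27, n = 4), or 1.59-fold lower, and 1.94% of genes were as low or lower. The WT line had the weakest fall, and its interval did not overlap those of the 3 mutant lines, whose intervals overlapped each other. With 1 sample per line and condition, the difference between WT and the mutant lines could not be tested against replicate spread.

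Relative to the mean of EHF and SPDEF in the same library, a measure free of library scaling that was added after the values were seen, ELF3 was 1.10 in WT Veh and 0.844 in WT Dox. The same pair of values was 0.797 and 0.439 for K450R, 0.573 and 0.319 for K451R, and 0.490 and 0.272 for K450RK451R. The siRNA libraries had 0.113 to 0.149. These ratios use CPM, which is not scaled to gene length, so they compare ELF3 between libraries and not with its relatives. Within each line the ratio was lower in Dox than in Veh.

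ETV1 had 155.7 CPM in WT Veh and 163.7 in WT Dox, a ratio of 1.05 with an interval of 0.981 to 1.13 that included 1. The K450R line had a ratio of 1.15 (1.07 to 1.24), the K451R line one of 1.13 (1.05 to 1.21) and the K450RK451R line one of 1.18 (1.11 to 1.26). The mean was 0.17 on the log2 scale (SD 0.07, n = 4), a difference of 1.13-fold.

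The other members of the epithelial branch did not follow ELF3. EHF had ratios of 1.00 to 1.05 in the 4 lines, with 523.2 to 614.6 CPM in Veh and 550.8 to 614.5 CPM in Dox. SPDEF had its lowest ratio, 0.977 (0.919 to 1.04), in the K450R line and its highest, 1.19 (1.12 to 1.26), in the K451R line, with 1.15 (1.08 to 1.21) for WT and 1.07 (1.02 to 1.13) for K450RK451R. Neither gene fell in any line by more than counting error, while ELF3 was lower in all 4.

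Of the remaining genes, ELK4 was between 55.5 and 75.7 CPM in all 8 conditions, with its largest ratio, 1.15 (1.02 to 1.31), in K450R. ERF was between 26.1 and 31.4 CPM, and ETS2 between 12.7 and 19.0 CPM. ELF1 had a ratio of 0.707 (0.606 to 0.823) in K450RK451R, where it went from 35.8 to 25.3 CPM, and intervals that included 1 in the other 3 lines. ETV6 had a ratio of 1.58 (1.22 to 2.06) in K450R, where it went from 11.6 to 18.3 CPM, and 0.808 (0.650 to 1.00) in K450RK451R. The changes of ELF1 and ETV6 were thus each limited to a single line or opposite between lines.

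**Figure D3:**
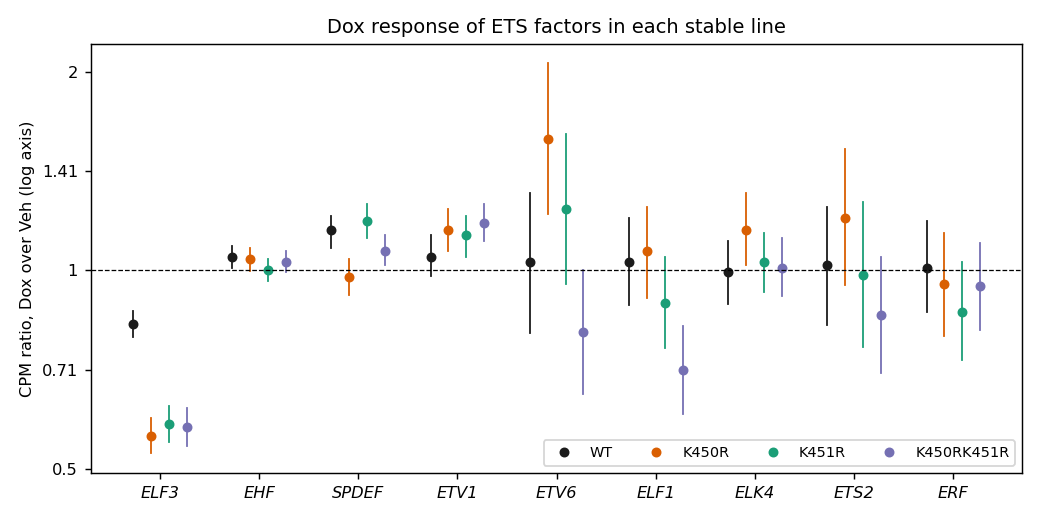
Ratio of CPM in Dox over Veh (log axis) for the 9 genes in each of the 4 stable lines, with bars for the 95% exact binomial counting interval. The 4 ELF3 points lie between 0.562 and 0.830, below the dashed line at 1, and the 4 ETV1 points lie between 1.05 and 1.18, above it.

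**Figure D4:**
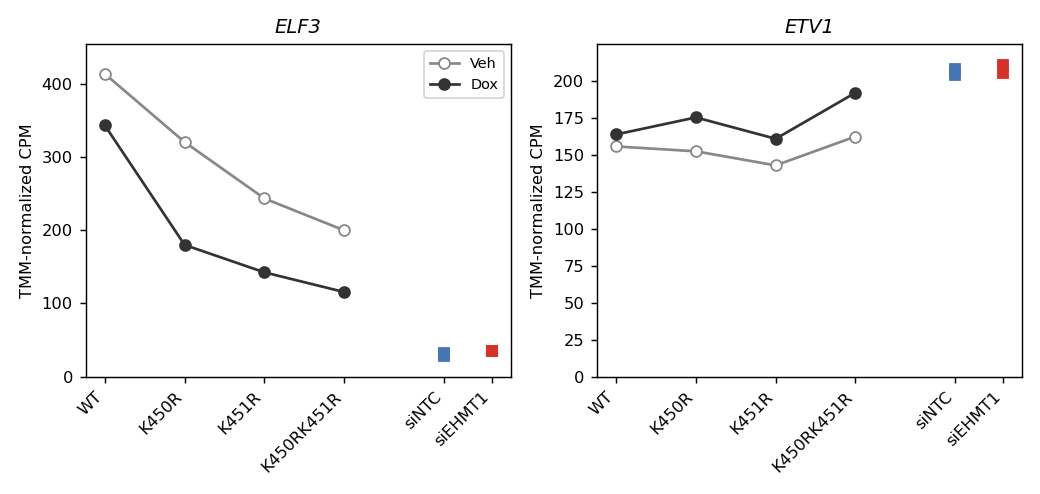
TMM-normalised CPM of ELF3 and ETV1 in the 4 stable lines (open, Veh; filled, Dox; the joining lines only guide the eye) and in the siRNA samples (squares, 2 per group). ELF3 is lower in each mutant line than in WT in both states, from 413.3 to 199.7 CPM in Veh, while ETV1 stays between 142.8 and 192 CPM.

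Across the 8 stable-line conditions, which share 4 populations and 1 normalisation, the correlation of log2 CPM describes which genes were patterned like ELF3. Among 9077 genes of at least 10 CPM, the 5 highest Pearson correlations with ELF3 were those of GADD45B, a stress-response gene (r = 0.996), ELOVL1, a fatty acid elongase (r = 0.994), EDN2, an endothelin (r = 0.990), the noncoding AC007318.5 (r = 0.989) and NXF1, an mRNA export factor (r = 0.989). These are the top of a long ranking over 8 points. None of the 5 passed the siRNA test (log2 fold changes -0.15 to 0.18, edgeR adjusted p from 0.634 upward). For ETV1 the 5 highest were SHKBP1 (r = 0.930), PSKH1 (0.929), VARS (0.926), ERI3 (0.924) and PEX10 (0.921). Within the 9 genes, ELF3 correlated at -0.68 with EHF, -0.65 with SPDEF, -0.64 with ETV1 and -0.64 with ELK4, and its highest correlation was 0.59, with ELF1.

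The rest of the ETS family gave no further call. Of the other 19 genes, 8 were tested after EHMT1 silencing and 9 between lines, and 0 passed an adjusted p of 0.05 in either, with edgeR. Over all genes tested, 0.131% passed after silencing and 2.72% between lines. The siRNA log2 fold changes ran from -0.23 for ELF5, an epithelial relative of ELF3 at 2.60 CPM in siNTC, to 0.23 for ETV2 at 1.15 CPM, with ELK3 at 0.20 and ELK1 at -0.15. None of the 8 had an unadjusted p under 0.05 either, where 9.55% of all genes did.

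Genes that act with ETS factors or on their stability gave no call after silencing. Of 15 tested, 0 passed the threshold, where 0.131% of all genes did. Log2 fold changes included 0.41 for DET1, an adaptor of the COP1 ubiquitin ligase that degrades ETV1, 0.22 for the kinase gene MAPK3 and -0.15 for CUL4A. Between lines 1 of 16 was called, where 2.72% of all genes were. This was TRIB1, the pseudokinase that brings substrates to COP1, with WT highest and K450RK451R lowest (log2 spread 0.80, edgeR adjusted p = 0.00101).

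RAS/MAPK feedback genes, which ETV1 and its relatives can drive, gave 0 calls of 7 after silencing, where 0.131% of all genes were called. SPRED2 had a log2 fold change of -0.34 and DUSP4 one of -0.22 (edgeR adjusted p = 0.45 and 0.429). SPRY4, at 1.91 CPM in siNTC, had -0.60, and DUSP5 had 0.30. Between lines 2 of 7 were called, where 2.72% of all genes were. DUSP5, an ERK phosphatase, was highest in WT and lowest in K450RK451R (log2 spread 1.37, edgeR adjusted p = 0.000145). DUSP4 was lowest in WT and highest in K451R in the fit over both Dox states (log2 spread 0.42, edgeR adjusted p = 0.00625).

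Among 12 tested epithelial genes that have been linked to ELF3, EHF or SPDEF, 1 rose after EHMT1 silencing and 0 fell. Of all genes tested, 0.131% were called. AGR2, a secretory-pathway disulfide isomerase, went from 39.4 and 41.8 CPM to 65.6 and 64.9 CPM (log2 fold change 0.69, SE 0.11, edgeR adjusted p = 0.00554). Between lines 4 of 12 were called, where 2.72% of all genes were. CLDN4, a tight-junction claudin, and AGR2 were highest in WT and lowest in K450RK451R (log2 spread 0.96 and 0.86, edgeR adjusted p = 1.69e-07 and 0.00362). KRT8, a luminal keratin, was highest in WT and lowest in K451R (log2 spread 0.35, edgeR adjusted p = 0.0389).

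The genes around ETV1 and around its insertion site were described because of the rearrangement. SLC45A3, which lies beside ELK4 on another chromosome, was kept in the same list. Of 7 tested, SLC45A3 included, 0 passed the threshold after silencing, where 0.131% of all genes did. Log2 fold changes were -0.48 for DGKB, which neighbours ETV1 at chr7:14184674-15014402, -0.19 for MIPOL1 at chr14:37667099-38048330, 0.09 for TTC6 and -0.08 for the pioneer factor gene FOXA1. From siNTC to Veh, DGKB was at 10.4 and 5.97 CPM and MIPOL1 at 41.1 and 43.5 CPM, beside 205.9 and 153.3 CPM for ETV1, levels that are not scaled to gene length. Between lines 2 of 6 were called, where 2.72% of all genes were. These were FOXA1 (log2 spread 0.49, edgeR adjusted p = 0.00145) and the ELK4 neighbour SLC45A3 (0.36, edgeR adjusted p = 0.0391). Both were highest in K451R and lowest in WT. FOXA1 was 189 CPM in Veh and 244 CPM in Dox on average.

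Of 10 listed hypoxia genes, a list drawn up with earlier results of these data known, 2 were called between lines, where 2.72% of all genes were. These were ANKRD37 (log2 spread 1.29, edgeR adjusted p = 3.83e-06) and VEGFA (0.62, edgeR adjusted p = 9.68e-06), both highest in WT and lowest in K450RK451R like ELF3. KDM3A, PDK1, NDRG1 and CA9 had K450R as their highest line and were not called. Under Dox 5 of 10 were lower in 4 of 4 lines, where 9.98% of all genes were. The summed level of the 10 genes in Veh and Dox was 7190 and 7130 CPM for WT, 7180 and 6360 for K450R, 6350 and 5270 for K451R, then 6300 and 5090 for K450RK451R. In Veh the sum was nearly the same in WT and K450R, where ELF3 had 413.3 and 320.2 CPM. NDRG1, with K450R as its highest line, was the largest part of the sum, at 2740 CPM on average in Veh. The called genes ANKRD37 and VEGFA had 425 and 1760 CPM in WT Veh, against 322 and 1550 CPM in K450R Veh. Under Dox the sum was lower by less in WT than in the other lines, as ELF3 was, and its part in the ELF3 differences was not tested. After silencing 0 of 8 tested passed the threshold, where 0.131% of all genes did. ANKRD37 had a log2 fold change of 0.51, KDM3A one of -0.31, PDK1 one of -0.27 and EGLN3 one of -0.15.

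Of the listed genes called between lines, 6 had the same highest and lowest line as ELF3: TRIB1, DUSP5, CLDN4, AGR2, ANKRD37 and VEGFA, a set singled out after their values were seen. DUSP5 had 26.2 CPM in WT Veh and 7.26 in K450RK451R Dox. ANKRD37 had 425 CPM in WT Veh and 129 in K450RK451R Dox. CLDN4 had 781 and 803 CPM in WT, and 477 and 350 CPM in K450RK451R. Of the 6, only AGR2 passed the edgeR test after EHMT1 silencing, in the direction of a rise.

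**Figure D5:**
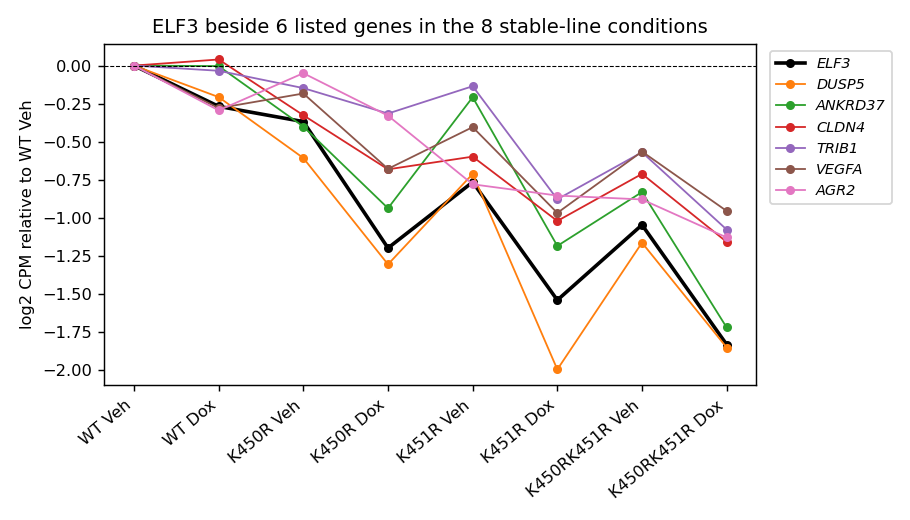
Log2 CPM relative to WT Veh of ELF3 (black) and of 6 listed genes with the same highest and lowest line, over the 8 stable-line conditions. ELF3 and DUSP5 are both below -1.5 in the Dox samples of K451R and K450RK451R, and CLDN4 is slightly above 0 in WT Dox, unlike ELF3.

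Reads of overlapping genes bear on ELF3 and ELK4. The strand setting of the counting is not given in the sources used here. ELF3 shares 664 exonic bases with its antisense gene ELF3-AS1, listed as RP11-465N4.4, which had 19 to 41 counts in the stable-line samples and 35 to 56 in the siRNA samples. On the same strand it shares 664 exonic bases with RP11-510N19.5, which had 1 to 8 counts in the siRNA samples and 0 to 42 in the stable lines, highest in WT Veh. The ELF3 counts, 145 to 436 in the siRNA samples and 1497 to 4906 in the stable lines, were larger throughout. ELK4 shares 422 exonic bases with MFSD4 (12 to 61 counts) on the opposite strand. Reads counted on ELF3 and ELK4 themselves cannot be split by strand from these values.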

How the data were processed

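RNA-seq libraries from LNCaP cells were prepared with a stranded total RNA kit and sequenced single-end. The authors deposited 2 tables of raw counts per Ensembl gene, without normalization. The submitters' processing notes name FastQC 0.11.9, STAR 2.7.2, featureCounts 1.6.4 and hg19. The annotation release and the strand setting are not given in the sources used here, so overlapping genes could share reads. The 9 genes and all gene lists were chosen with earlier results of these data known. Genes are named if they are 1 of the 9, if they pass an adjusted p of 0.05 in a list, if they are among the 4 largest log2 fold changes of a list of at least 1 CPM without such a gene, or if they are among the 5 genes most correlated with ELF3 or ETV1; others were named after their values were seen. Some genes of the lists are not reported here.

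Analyses used R 4.3.3 with edgeR 4.0.16 (TMM, default filter, quasi-likelihood tests, Benjamini-Hochberg adjustment over all genes tested). The siRNA samples were fitted alone. For the stable lines, both columns of a condition were summed after a chi-square test on genes of 20 or more counts in total, and lines were compared with the Dox state as covariate. For Dox against Veh only ratios were computed, with exact binomial (Clopper-Pearson) 95% intervals. Nothing says that samples came from separate cultures, so the siRNA p-values measure the spread between these samples, which may be technical. The line test had 1 summed sample per line and Dox state. Its p-values are thus set against how far the Dox response differed between lines, and not against replicate samples. Exonic lengths and positions came from GENCODE 44 on GRCh37, which held 55538 of the 57773 identifiers. Upstream sequences came from RefSeq on GRCh38.p14, and no coordinates were converted between builds. Correlations used log2(CPM + 0.5).

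Replicate numbers are shared by siNTC and siEHMT1, and same-numbered samples did not deviate together (r = -0.00226 over 14532 genes). Alternatives were DESeq2 1.42.0, limma-voom 3.58.1, the legacy edgeR method, other scalings, no filter, a replicate block and single columns. Further ones left out the rRNA-like pseudogenes, or each sample or line in turn. On simulated counts, edgeR recovered 198 of 200 genes changed 4-fold in the siRNA design of 14345 genes, with 7 false calls, and 200 of 200 in the line design of 14623 genes, with 8 false calls. The simulation gave every gene the same fixed dispersion and changed only genes above a minimum mean count. It therefore cannot show whether smaller changes in the siRNA samples would have been found.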

Additional observations from a re-analysis of the deposited data

Results flagged for a closer look

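In the Dox samples of the 4 stable lines, ETV6 had 18.3 CPM in K450R against 13.7 to 13.8 CPM in the other 3 lines, a gap that makes this sample stand apart from its group by Dixon's criterion. In Veh the same line had 11.6 CPM, and its ratio of Dox over Veh was 1.58 (95% counting interval 1.22 to 2.06). It was the only such sample in 18 groups of 4 values examined, and chance alone flags about 1 in 20 groups.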

How the results depend on the processing

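Of 509 values recomputed under other settings, 483 were counted as unchanged. For a gene in the siRNA or line test, this meant the same direction and side of the threshold. For a mean Dox value it meant a shift smaller than the SD over lines, whatever the sign. For a number of genes it meant a limited fold difference. ELF3 differed between lines under every setting run, with a log2 spread of 0.66 to 1.33 and adjusted p from 1.22e-18 to 3.39e-06, the smallest spread being that without the WT line. Its mean Dox value stayed between -0.80 and -0.58 on the log2 scale. None of the 9 genes was called after EHMT1 silencing under any setting, the replicate block included. With total-count scaling the mean Dox value moved to 0.13 for EHF and 0.25 for ETV1. The mean Dox value of ETS2 ran from -0.075 to 0.097 over the settings and so changed sign.

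The number of genes called after silencing was 19, and became 12 without a filter, 118 with the replicate block (the numbers do not pair the samples) and 38 to 110 with a sample left out: 80 without siNTC 1, 38 without siNTC 2, 60 without siEHMT1 1 and 110 without siEHMT1 2. The number called between lines was 404, and became 242 with DESeq2 and 231 to 376 with a line left out (231 without WT). Genes moving the same way in all lines under Dox numbered 3031, and 4427 to 5458 with a line left out (5458 without WT, 4691 without K450R and 4730 without K450RK451R), where fewer lines have to match. The cause of the other shifts was not tested.

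Small siRNA log2 fold changes changed sign with a sample left out. Their lowest and highest values were -1.01 and 0.50 for SPRY4, -0.13 and 0.17 for ETV6, and -0.28 and 0.034 for ETS2. ELK4 had -0.19 and 0.06, DGKB -0.93 and 0.032, ELF1 -0.025 and 0.26, and ETV2 -0.39 and 0.89. ERF had -0.073 and 0.38, ELK3 -0.21 and 0.53, and TTC6 -0.084 and 0.24. For ETV1 the values were 0 and 0.033, so no change of sign shows at this rounding. None of these genes was called in either direction. Without siNTC 2 the value of ETV2 was -0.031. Of the 9 genes, ETS2 had the fewest counts per siRNA library (32 to 87), followed by ETV6 (86 to 197).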
